A study of Mus musculus with 5 samples.

Results

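The genes described here are 8 genes of cholesterol synthesis, chosen by name among the 24421 genes with values in the series: Hmgcs1, Idi1, Fdps, Fdft1, Sqle, Lss, and Dhcr7, which encode enzymes, and Srebf2, which encodes the transcription factor that controls them. All 8 had values in every library and all 8 passed the filter on low values, which asked that 1 or both libraries of a comparison reach 1 FPKM (fragments per kilobase of transcript, scaled to the mapped fragments of the library). RNA-seq was run on 5 mouse libraries, made to compare pluripotent stem cells with somatic cells and to follow the loss of Gldc, the glycine decarboxylase of the glycine cleavage system. The MEF library came from mouse embryonic fibroblasts (MEFs) of CF-1 embryos, grown in DMEM with 10% foetal bovine serum. The iPSC library came from an induced pluripotent stem cell line and the V6.5 library from V6.5 cells, a line of mouse embryonic stem cells (mESCs). The NTC and shGldc libraries came from V6.5 cells that stably expressed, from the pLKO.1 vector, a non-targeting control hairpin or a hairpin against Gldc. Per the labels, the stem cells were grown without feeders on gelatin in DMEM with 15% serum replacement, 1% serum, and leukaemia inhibitory factor. The study's methods also describe culture on feeder cells in serum, without saying which was used for these libraries. Each group was 1 library of 1 line or preparation, so no p-value or replicate error could be given, and every ratio compares 2 libraries. Serum carries lipoprotein cholesterol, and MEFs differed from the stem cells in cell type and, per the labels, in medium, which cannot be told apart in the comparisons with MEFs. The mouse stock is given for MEFs alone.

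Cells make cholesterol from acetyl-CoA through mevalonate, the isoprenoid farnesyl diphosphate, and squalene, and the last steps reshape the sterol rings and side chain. The genes of this pathway are controlled together by SREBP2, the product of Srebf2. When membranes of the endoplasmic reticulum hold little cholesterol, SCAP carries the SREBP2 precursor to the Golgi, where the proteases encoded by Mbtps1 and Mbtps2 release its active part, whereas INSIG proteins hold it back when sterols are plentiful. SREBP2 then binds sterol regulatory elements, usually beside binding sites of NF-Y and Sp1, and raises transcription of the enzymes and of its own gene.

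RefSeq promoters of build GRCm38.p6, from 250 bases before to 50 bases after an annotated start, were at hand for Hmgcs1, Idi1, Lss, Dhcr7, and Srebf2. The promoters of Hmgcs1 at chr13:119690101-119690400 (plus strand) and of Srebf2 at chr15:82147019-82147318 (plus strand) are shown because they were the members' promoters that held the letters of a sterol regulatory element, searched as TCACNCCAC, or of its shorter core, CACNCCA. Capitals mark the whole element in Hmgcs1 and the core in Srebf2.
Hmgcs1: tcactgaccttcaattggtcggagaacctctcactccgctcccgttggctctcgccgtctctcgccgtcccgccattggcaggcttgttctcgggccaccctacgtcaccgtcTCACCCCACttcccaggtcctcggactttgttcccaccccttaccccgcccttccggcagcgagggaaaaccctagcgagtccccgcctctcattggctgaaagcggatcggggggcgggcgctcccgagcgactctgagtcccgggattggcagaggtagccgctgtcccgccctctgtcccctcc
Srebf2: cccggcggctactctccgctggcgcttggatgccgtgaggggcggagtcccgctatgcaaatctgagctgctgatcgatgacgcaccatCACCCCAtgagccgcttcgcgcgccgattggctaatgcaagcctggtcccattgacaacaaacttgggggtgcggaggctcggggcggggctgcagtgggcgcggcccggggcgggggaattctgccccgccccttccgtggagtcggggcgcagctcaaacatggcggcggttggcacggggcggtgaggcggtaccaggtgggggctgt

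In Hmgcs1 the match read TCACCCCAC and began 137 bases before the start, and in Srebf2 the core began 161 bases before it. The whole element was present in 1.25% of the 20788 promoters searched on both strands, and its core, which lies inside it, in 18.1%. By gene, the whole element was present in 1 of 17 sterol enzyme genes with an entry (Hmgcs1), against 1.45% of 17224 genes, and the core in 3 of 17, against 20.2%, so the core was no more frequent among the enzymes. The CCAAT letters bound by NF-Y were present in a promoter of all 5 members with an entry and of 15 of 17 sterol enzyme genes, against 42.0% of all genes searched. The GC box GGGCGG was present in the same numbers of members and enzyme genes, against 49.6% of those genes and 73.7% of the 6028 with an FPKM of at least 5 in the V6.5 library. For CCAAT that last share was 43.7%. A match describes the letters in this window and is no evidence of binding.

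Of all members, the precursor gene Srebf2 varied least between libraries. Srebf2 (chr15:82147181-82205379, plus strand, mm10) was at an FPKM of 60.5 in MEFs, 63.9 in iPSCs, 105 in V6.5 cells, 80.1 with the NTC hairpin, and 78.6 with shGldc. The highest of these levels was 1.73-fold the lowest, and its transcript level says nothing of how much of the protein was cleaved. In iPSCs it was the most abundant of the 8 members, whereas in the other 4 libraries Fdps was.

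The early enzymes differed far more. Hmgcs1 (chr13:119690379-119708260, plus strand), the synthase that makes HMG-CoA, was at 64.5 in MEFs, 17.5 in iPSCs, 45.3 in V6.5 cells, 25.9 with the NTC hairpin, and 35.9 with shGldc. Idi1 (chr13:8885501-8892451, plus strand), the isomerase that turns isopentenyl diphosphate into the dimethylallyl form, was at 18.1, 2.59, 12.6, 6.81, and 4.87 FPKM in the same order. Idi1 was thus the least abundant member per length of transcript in all 5 libraries, and its iPSC level rested on the fewest fragments, an estimated 173, with a counting SD of 7.59%. Fdps (chr3:89093588-89101959, minus strand), which makes farnesyl diphosphate, the branch point to sterols and to protein prenylation, was at 288, 38.8, 191, 87.4, and 132 FPKM. Its 7.42-fold span between MEFs and iPSCs was the widest among the 8 members. It alone made up 28.6% of the summed FPKM of the sterol enzyme list in MEFs, against 12.3% in iPSCs.

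The enzymes of the squalene stage were also at their lowest in iPSCs. Fdft1 (chr14:63145150-63179578, minus strand), squalene synthase and the first step that leads to sterols alone, was at 54.1 FPKM in MEFs, 22.5 in iPSCs, 46.5 in V6.5 cells, 27.4 for NTC, and 32.4 for shGldc. Sqle (chr15:59315077-59331192, plus strand), the oxygen-requiring squalene epoxidase and a rate-limiting step, was at 63.5, 13.8, 24.7, 26.8, and 29.5 FPKM in that order. Lss (chr10:76531588-76557138, plus strand), which closes the rings to lanosterol, was at 19.8, 4.98, 14.0, 10.9, and 10.1 FPKM. Sqle was the only one of the 7 enzymes whose V6.5 level lay below that of the NTC library. Taken as a fold, the spread of its 3 V6.5 cell libraries was the narrowest of the 3 genes, whereas in FPKM that of Lss was.

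Dhcr7 (chr7:143823145-143848410, plus strand), the reductase of the last step to cholesterol, was at 26.8 FPKM in MEFs, 7.99 in iPSCs, 39.8 in V6.5 cells, 23.5 with the NTC hairpin, and 24.2 with shGldc. It was the only member enzyme with its highest level in V6.5 cells rather than in MEFs. All 7 member enzymes had their lowest level in the iPSC library.

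**Figure D1:**
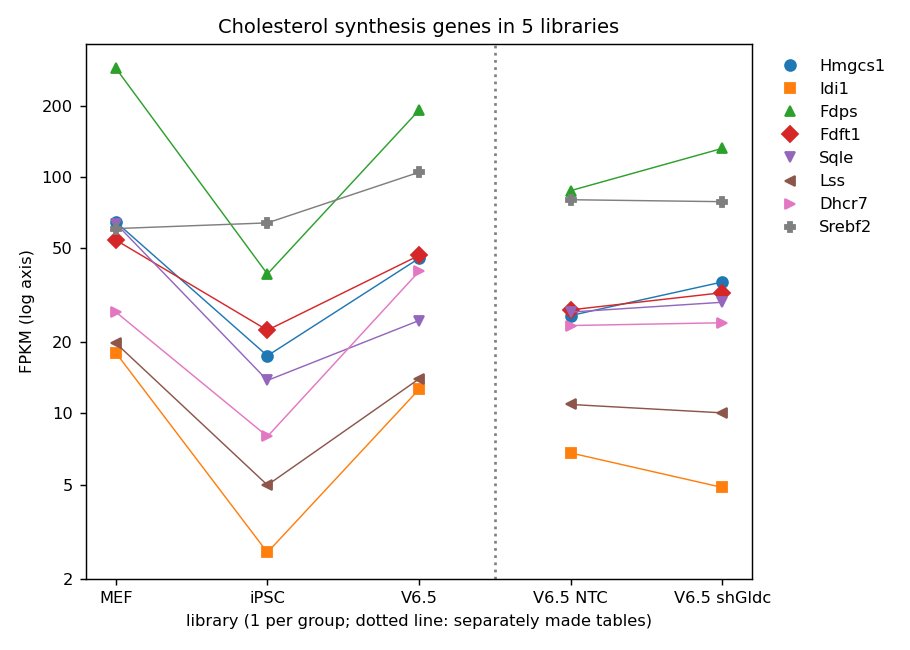
FPKM (log axis) of the 8 members in the 5 libraries, 1 point per gene and library, with lines only inside each of the 2 separately made tables. The 7 enzymes dip in iPSCs, Fdps from 288 in MEFs to 38.8 and Idi1 from 18.1 to 2.59, whereas Srebf2 stays between 60.5 and 105 in all libraries.

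Some of these genes share sequence with other annotated genes. Stretches of 50 nt that also occur in transcripts of other genes made up 26.5% of those of Fdft1 (with Ctsb, which overlaps it on the opposite strand), 26.2% of Fdps (with Gm43738, which overlaps it), 25.3% of Idi1 (with Gm13502), and 11.6% of Hmgcs1 (with Gm48342, which overlaps it on the opposite strand). For Sqle, Lss, Dhcr7, and Srebf2 the share was at most 1.86%. How the counting treated strand and shared stretches is not stated in the sources used here, so values of the former 4 genes are uncertain. The share of stretches does not bound the error, which also depends on the level of the other gene. Ctsb, a lysosomal protease gene, was at 195 FPKM in MEFs, 53.0 in iPSCs, and 51.4 in V6.5 cells, and its part in the Fdft1 values was not tested.

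As for the libraries, Gldc was at 0.123 FPKM in MEFs, 70.8 in iPSCs, 59.7 in V6.5 cells, 74.7 for NTC, and 2.07 for shGldc, which accords with the labels. The 7 pluripotency markers summed to 2.97 FPKM in MEFs and to between 3441 and 6283 in the other libraries, where all 7 were at 1 or more. The 7 fibroblast markers summed to 6814 FPKM in MEFs and to between 6.88 and 48.7 elsewhere. In MEFs, 5 of 6 macrophage markers were at 1 or more and the list summed to 119 FPKM, against 9.35 to 20.6 in the stem cell libraries, where Cd68 was the only marker at 1 or more. The part of such cells in the MEF values was not tested. Depth, estimated from the steps between low values, was 2.22e+07 to 2.47e+07 fragments for the first 3 libraries and is known only within a factor of 2 for the NTC and shGldc libraries.

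To ask how the 2 pluripotent lines compared, iPSCs were set against V6.5 cells, for which the labels give the same medium. All 8 members were lower in iPSCs, and 6 of 8 were at least 2-fold lower, where 7.44% of the 12323 genes tested were. None was at least 2-fold higher, where 10.1% of genes were. The log2 ratio, taken here and below of FPKM + 0.1, was -2.30 for Dhcr7, -2.30 for Fdps, -2.25 for Idi1, -1.47 for Lss, -1.36 for Hmgcs1, -1.05 for Fdft1, -0.84 for Sqle, and -0.71 for Srebf2. The median over the 7 member enzymes was -1.47, or 2.77-fold lower, with an SD between genes of 0.62, and the median over all genes was 0.04. Genes are not replicates, so that SD describes only how unlike the members were. Fibroblast collagens moved with this comparison: Col1a1 was at 20.5 FPKM in V6.5 cells and 1.68 in iPSCs, Col1a2 at 15.3 and 0.857, and Col3a1 at 3.21 and 0.0965. The 7 fibroblast markers summed to 0.714% of their MEF level in V6.5 cells, 0.345% in iPSCs, and 0.156% in the NTC library, and 5 of 7 and 3 of 7 were at 1 or more in V6.5 cells and iPSCs. Thy1 (5.63 and 8.30 FPKM) and Twist1 (2.77 and 11.8 FPKM) were higher in iPSCs. The part of such cells in the members' ratios was not tested.

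Some of the other enzymes of the pathway were also at least 2-fold lower in iPSCs. Of the 20 genes on a list of sterol synthesis enzymes, 19 passed the filter (Idi2 was listed at 0 in all libraries). Of the 19, 12 were at least 2-fold lower in iPSCs than in V6.5 cells, where 7.44% of all genes were. A further 0 were at least 2-fold higher, where 10.1% were, and the list's median was -1.05. For the 12 that passed and are not members, 6 were at least 2-fold lower, and their median relative to that of all genes was -1.05, beside -1.52 for the 7 member enzymes. The non-members among the 12 were Msmo1, a C4 demethylation enzyme (-1.76), Mvd, mevalonate diphosphate decarboxylase (-1.54), Pmvk, phosphomevalonate kinase (-1.09), Tm7sf2, a sterol C14 reductase (-1.05), Mvk, mevalonate kinase (-1.01), and Cyp51, lanosterol demethylase (-1.01). Ebp, the sterol isomerase, was the sole enzyme that passed the filter and lay above 0, at 0.33. The summed FPKM of the list was 316 in iPSCs, or 0.0548% of the library's total, and 791 in V6.5 cells, or 0.144%.

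The NTC library, also of V6.5 cells, offered a second reference, although its values come from the other table. Against it, 4 of 8 members were at least 2-fold lower in iPSCs (Dhcr7 -1.55, Idi1 -1.36, Fdps -1.17, and Lss -1.12), where 7.81% of the 12283 genes tested were, and none was at least 2-fold higher, where 16.3% were. The median of all genes in this pair was 0.11, and the members' median was -1.04 in place of -1.42. Sqle was at -0.95, Hmgcs1 at -0.56, Srebf2 at -0.33, and Fdft1 at -0.28. All 8 members thus lay below both V6.5 cell references, but the sizes depended on which of them was used. Of the sterol enzyme list, 6 of 19 were at least 2-fold lower against NTC in place of 12, 0 were at least 2-fold higher, and the median was -0.64. The non-members among the 6 were Tm7sf2 (-1.29) and Pmvk (-1.15), whereas Msmo1 was at -0.81, Mvd at -0.73, Mvk at -0.35, and Cyp51 at 0.08. Collagens were low on both sides of this pair. Col1a1 was at 1.68 FPKM in iPSCs and 1.24 in the NTC library (0.41). Col1a2, at 0.857 and 0.225 FPKM, did not pass the filter. The part of fibroblast-like cells here was not tested either.

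**Figure D2:**
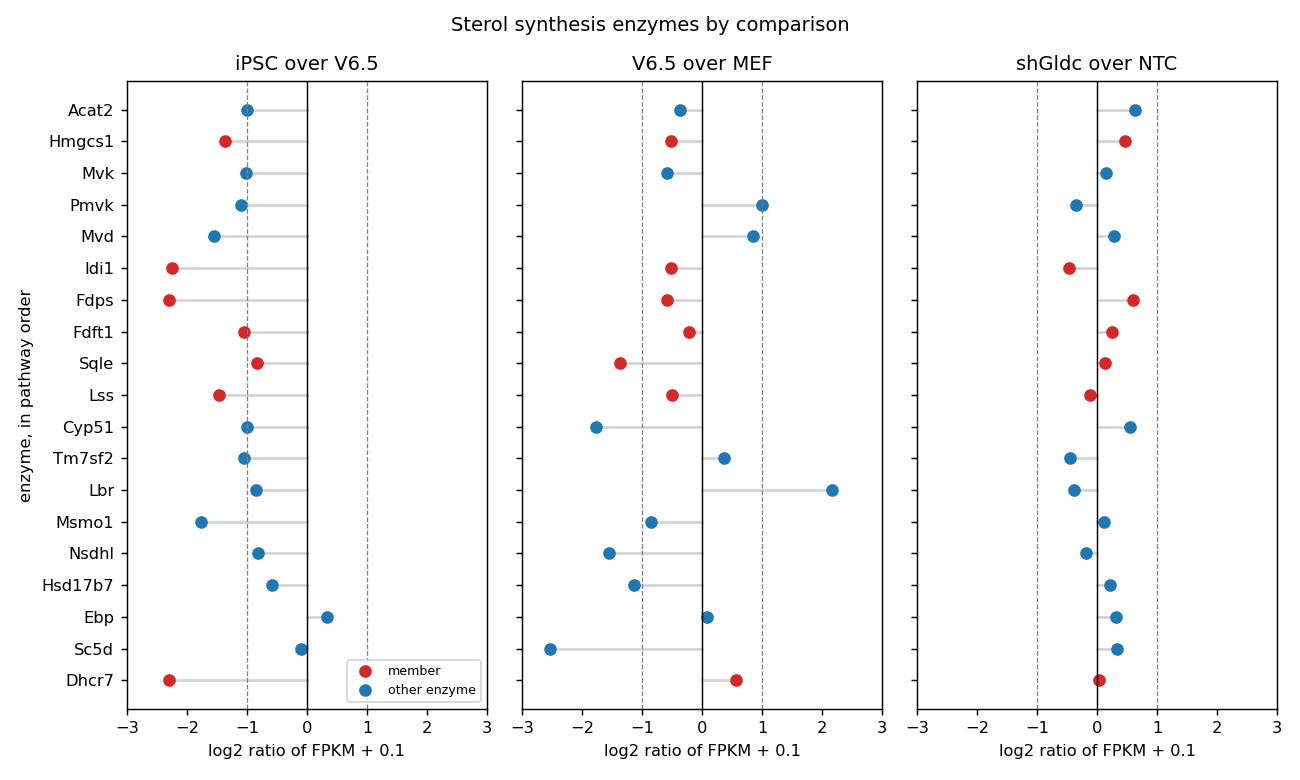
Log2 ratio of FPKM + 0.1 for the 19 sterol enzymes that passed the filter, in pathway order from top to bottom, for iPSC over V6.5, V6.5 over MEF, and shGldc over NTC (red, members; blue, other enzymes; dashed lines, 2-fold). On the left 18 of 19 points lie below 0 and 12 lie at least 2-fold down, in the middle both directions occur, and on the right no point reaches 2-fold.

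To ask how pluripotent and somatic cells differ, both lines were set against MEFs. In iPSCs, 7 of 8 members were at least 2-fold lower than in MEFs, where 21.3% of the 13032 genes tested were, and none was at least 2-fold higher, where 31.5% of genes were. The ratios were -2.89 for Fdps, -2.76 for Idi1, -2.20 for Sqle, -1.97 for Lss, -1.87 for Hmgcs1, -1.74 for Dhcr7, and -1.26 for Fdft1. The median over these 7 enzymes was -1.97, or 3.92-fold lower, beside 0.31 for all genes. Srebf2 was at 0.08, a value that turned to -0.22 when both libraries were brought to one FPKM total and to -0.23 when they were centred on the median of all genes, so no direction is given for it. The enzymes and the gene of their regulator thus differed in their ratios in this pair of libraries.

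V6.5 cells lay closer to MEFs. Sqle was the only member at least 2-fold lower, at -1.36, where 23.3% of the 12840 genes tested were, and none was at least 2-fold higher, where 30.3% were, so the count of members was not above the background. Fdps was at -0.59, Idi1 and Hmgcs1 were both at -0.51, Lss was at -0.50, and Fdft1 was at -0.22. Dhcr7 at 0.57 and Srebf2 at 0.79 lay above 0. The members' median of -0.50, beside 0.25 for all genes, became 0.03 when the 4 members with shared stretches of over 10% were left out, so the median depended on which members were counted. All member values for iPSCs and V6.5 cells here use the same MEF library.

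The sterol enzyme list spread widely in both of these comparisons. In iPSCs 14 of 19 enzymes were at least 2-fold lower than in MEFs, where 21.3% of all genes were. One, or 1 of 19, was at least 2-fold higher, where 31.5% were, and the median was -1.74. Besides the 7 members, Cyp51 (-2.77), Sc5d, a sterol desaturase (-2.64), Msmo1 (-2.60), Nsdhl, which works beside Msmo1 (-2.35), Hsd17b7 (-1.71), Mvk (-1.59), and Acat2, the acetoacetyl-CoA thiolase (-1.36), were lower. Lbr, a sterol C14 reductase that is also a protein of the nuclear envelope, was the enzyme at least 2-fold higher, at 1.31, a call it lost on centring. In V6.5 cells 5 enzymes were at least 2-fold lower than in MEFs (Sc5d -2.54, Cyp51 -1.77, Nsdhl -1.54, Sqle -1.36, and Hsd17b7 -1.13). That count was near the background, as 23.3% of all genes were lower. Lbr (2.16) and Pmvk (1.00) were at least 2-fold higher, where 30.3% of genes were. The call for Pmvk was lost with a pseudocount of 1, on rescaling, and on centring. Lbr was at 10.6 FPKM in MEFs, 26.4 in iPSCs, and 47.7 in V6.5 cells, so it was above MEFs in both lines and, at -0.85, lower in iPSCs than in V6.5 cells.

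**Figure D3:**
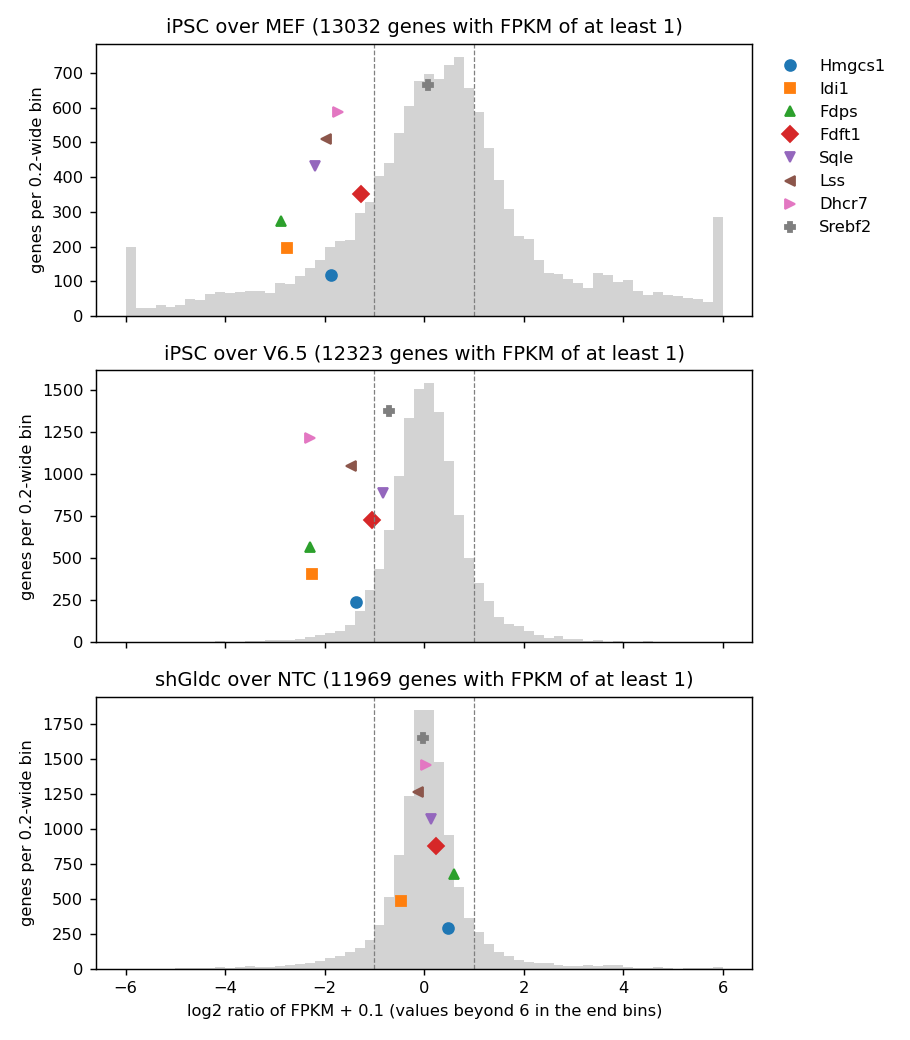
Number of genes per bin of 0.2 in log2 ratio of FPKM + 0.1 (grey bars) for iPSC over MEF, iPSC over V6.5, and shGldc over NTC, with the 8 members as coloured symbols whose height carries no value. The 7 enzymes lie at -1.26 or below in the top panel and 6 of them at -1.05 or below in the middle one, whereas in the bottom panel all members lie between -0.48 and 0.59.

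To ask whether these genes differed after Gldc knockdown, the shGldc library was set against the NTC library, both V6.5 cells in the same table. Gldc itself was at 2.07 FPKM against 74.7, a log2 ratio of -5.11. No member was at least 2-fold higher or lower, where 8.97% of the 11969 genes tested were higher and 7.68% lower. Fdps was at 0.59, Hmgcs1 at 0.47, Fdft1 at 0.24, Sqle at 0.14, Dhcr7 at 0.04, Srebf2 at -0.03, Lss at -0.12, and Idi1 at -0.48. Both directions occurred, and the enzymes' median of 0.14 (SD between genes 0.36) lay close to the 0.04 of all genes.

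The 19 sterol enzymes gave a similar picture, with none past 2-fold in either direction, 13 above 0, and a median of 0.15. Acat2 at 0.63 was the highest and Idi1 the lowest, and 39.1% of the stretches of Acat2 are shared with its near copy Acat3. With 1 library on each side, differences of this size cannot be set against replicate spread. A gap is available between the V6.5 and NTC libraries, which differ by the vector and by the table they came from: 1 of 8 members, Fdps at -1.13, was at least 2-fold lower in NTC, where 10.3% of the 12048 genes tested were, and none was at least 2-fold higher, where 4.99% were. Idi1 was at -0.88 in that pair, Hmgcs1 at -0.80, Fdft1 and Dhcr7 at -0.76, Srebf2 at -0.38, Lss at -0.36, and Sqle at 0.12. Fibroblast markers moved with this pair too: Col1a1 was at 20.5 FPKM in V6.5 cells and 1.24 in the NTC library, Col1a2 at 15.3 and 0.225, and Col3a1 at 3.21 and 0, and the list summed to 48.7 and 10.7 FPKM, a part that was not tested. The member enzymes' median was -0.76, beside -0.06 for all genes. For 6 of the 7 enzymes, then, the gap between these V6.5 cell libraries was larger than that between the shGldc and NTC libraries, Sqle being the exception at 0.12 against 0.14.

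Genes that control SREBP2 were described next, from a list of 10 that includes Srebf2. The list's median in iPSCs over V6.5 cells was -0.68, beside 0.04 for all genes. In iPSCs 4 of the 10 were at least 2-fold lower than in V6.5 cells, where 7.44% of all genes were, and none was higher, where 10.1% were. These were Insig1 (-2.06), itself a target of SREBP2 and the protein that retains SCAP, Srebf1, the gene of the related SREBP1 (-1.09), Mbtps1, which makes the first cut in SREBP2 (-1.08), and Rnf145, a ubiquitin ligase (-1.02). Insig1 was at 54.6 FPKM in MEFs, 9.12 in iPSCs, 38.4 in V6.5 cells, 14.0 with the NTC hairpin, and 13.1 with shGldc. Like 6 of the 7 member enzymes, Insig1 was highest in MEFs and lowest in iPSCs, and its iPSC ratio to the NTC library was -0.61. Against NTC the 4 became 2, Rnf145 (-1.24) and Srebf1 (-1.17), where 7.81% of all genes were lower. Mbtps1 was at -0.91, and the median was -0.46. Insig2, which is not a usual SREBP2 target, was the highest of the list over V6.5 cells at 0.97, and Rnf139 was the highest over NTC at 0.74. None of the 10 was past 2-fold in shGldc over NTC, where Scap at 0.72 was the highest, Rnf139, a ubiquitin ligase, was the lowest at -0.35, and the median was -0.03.

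Uptake and transport of cholesterol were followed with a list of 7 genes. Of the 6 that passed, Stard4, a sterol carrier, was the one at least 2-fold lower in iPSCs than in V6.5 cells, at -1.11. None was at least 2-fold higher. Of all genes, 7.44% were lower and 10.1% higher. Stard4 was at 9.96 FPKM in MEFs, 3.16 in iPSCs, 6.92 in V6.5 cells, 5.59 for NTC, and 3.90 for shGldc. The other 5 genes, of lysosomal and membrane transport, lay between -0.61 and 0.80, with Stard3, a sterol transporter of late endosomes, the highest, and the list's median was -0.14. Against NTC, Stard4 was at -0.80, and Npc1, the lysosomal cholesterol exporter, was at least 2-fold higher (1.17), where 16.3% of all genes were. The median was 0.55, so the list kept no direction. In shGldc over NTC none of the 6 passed 2-fold, with Stard4 at -0.51 the lowest, Npc1 at 0.41 the highest, and a median of 0.02.

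Fatty acid synthesis shares the SREBP system mainly through SREBP1. Of its 12 genes, 6 were at least 2-fold lower in iPSCs than in V6.5 cells, where 7.44% of all genes were, 1 was at least 2-fold higher, where 10.1% were, and the median was -0.87. The lower genes were the stearoyl-CoA desaturases Scd2 (-3.74) and Scd1 (-1.92), the acetyl-CoA synthetase Acss2 (-2.29), acetyl-CoA carboxylase Acaca (-1.54), fatty acid synthase Fasn (-1.12), and the desaturase Fads2 (-1.10). Malic enzyme Me1, which supplies NADPH, was higher, at 1.03. Stretches of 50 nt shared with transcripts of other genes made up 28.3% of those of Me1 and 30.4% of those of Acaca, so their values are uncertain too. Against NTC, 5 were at least 2-fold lower, where 7.81% of all genes were, Fads2 being at -0.56. Me1 was at 1.29, where 16.3% of genes were at least 2-fold higher, and the median was -0.65. Scd2 was at 359 FPKM in MEFs, 5.64 in iPSCs, 76.5 in V6.5 cells, 89.4 with the NTC hairpin, and 108 with shGldc. Its level in iPSCs was thus far below all 4 others. In shGldc over NTC no gene of this list passed 2-fold, Me1 (0.69) was the highest and Acacb, the other carboxylase (-0.56), the lowest, and the median was -0.06.

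A list of genes that encode the sterol sensor LXR and of its targets, cholesterol exporters among them, did not share the pattern. Of 5 that passed among 6, Apoe, a lipoprotein component, was the one at least 2-fold higher in iPSCs than in V6.5 cells, at 1.17. None was at least 2-fold lower, with Abca1 (-0.02) the lowest and a median of 0.10. Of all genes, 10.1% were at least 2-fold higher and 7.44% lower in that pair. Against NTC, Apoe (1.69), Abca1 (1.64), and Abcg1 (1.05) were at least 2-fold higher and Nr1h3, which encodes an LXR, at least 2-fold lower (-1.31), with a median of 0.62. Apoe was at 177 FPKM in MEFs, 2756 in iPSCs, 1224 in V6.5 cells, 854 for NTC, and 481 for shGldc. In shGldc over NTC the list's median was -0.79. Abcg1, a sterol exporter, was at least 2-fold lower (-1.44, from 1.52 to 0.496 FPKM), where 7.68% of all genes were. Nr1h2, which encodes the other LXR, was the highest at 0.02, a value that turned to -0.02 on rescaling.

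**Figure D4:**
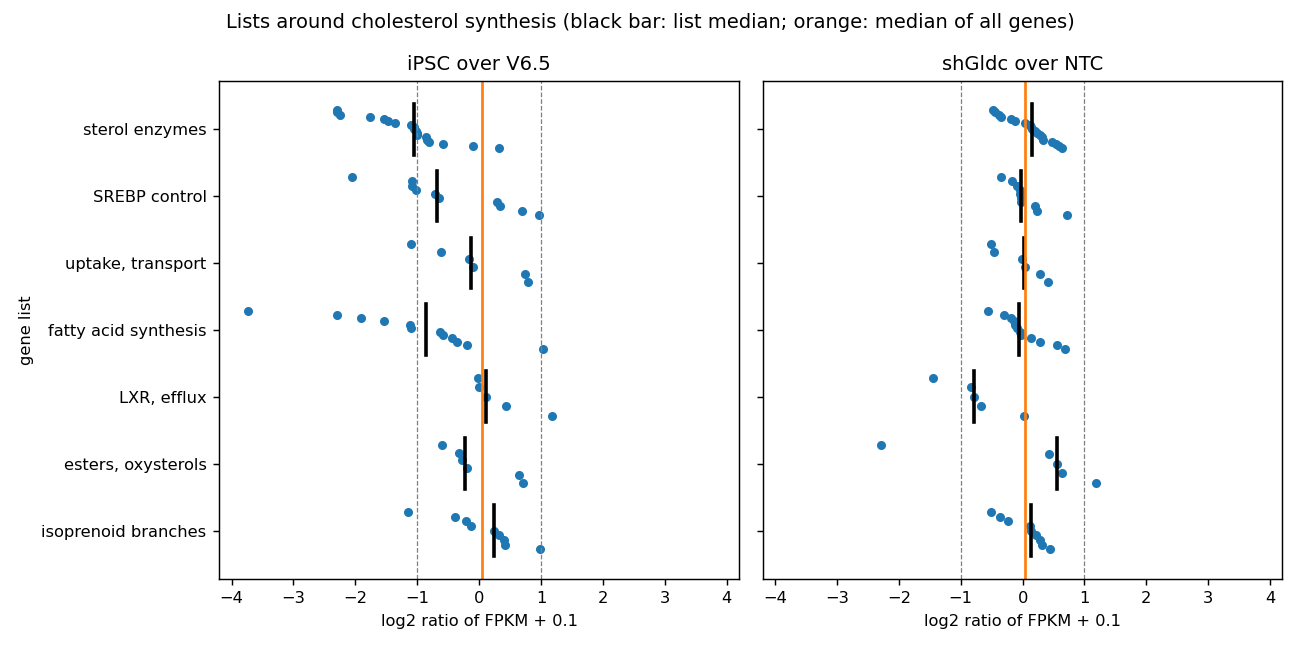
Log2 ratio of FPKM + 0.1 for the genes of 7 lists around cholesterol synthesis that passed the filter, for iPSC over V6.5 and shGldc over NTC (points, genes; black bars, list medians; orange line, median of all genes; dashed lines, 2-fold). On the left the medians of sterol enzymes (-1.05), fatty acid synthesis (-0.87), and SREBP control (-0.68) are the lowest, and on the right the LXR and efflux list (-0.79) has the lowest median.

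Last, genes whose pattern over the 5 libraries was most like that of the members were sought among the 9879 genes that reached 5 FPKM in some library, by the root mean square difference between log2 profiles centred on each gene's mean. The members' median profile was 0.88 in MEFs, -1.06 in iPSCs, 0.44 in V6.5 cells, -0.07 with the NTC hairpin, and 0.06 with shGldc. Lss (0.09) ranked 1 and Hmgcs1 (0.16) ranked 4, whereas Fdft1 ranked 30, Sqle 65, Fdps 118, Dhcr7 132, Idi1 219, and Srebf2 1843. Since members set the profile, their ranks are only a description of how unlike they were. The 5 nearest other genes were Mthfsl (0.13), Gpc3, a glypican of the cell surface (0.14), Cacnb3, a calcium channel subunit (0.16), Slc25a1, the mitochondrial citrate carrier (0.18), and Palm (0.18). Slc25a1 was at 149 FPKM in MEFs, 48.0 in iPSCs, 135 in V6.5 cells, 101 for NTC, and 121 for shGldc. Among the enzymes that are not members the ranks ran from 21 for Mvk and 49 for Acat2 to 4742 for Ebp and 6847 for Lbr, so some lay near the profile and others far from it.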

How the data were processed

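RNA was extracted with TRIzol and libraries were made with the NEBNext Ultra kit. Per the study's methods and the submitters' processing notes, the authors mapped reads to mm10 with TopHat2 2.1.0, assembled transcripts with StringTie 1.3.4d, and computed expression with Ballgown. The notes also list SAMtools 1.7 and build mm9, with no role given. Annotation, strand, and filters are not given in the sources used here. The authors deposited FPKM values in 2 separately made tables, so values for NTC or shGldc set beside the other libraries cross tables.

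Ratios were differences of log2(FPKM + 0.1) for genes that reached 1 FPKM in 1 or both libraries, a pseudocount that understates changes of low genes, and at least 2-fold was the threshold. No test was possible with 1 library per group. Python 3.11.15 with pandas 2.3.3 was used, and the calculation was tested on simulated data. Shared stretches and positions came from GENCODE M21 (mm10), promoters from RefSeq (GRCm38.p6). Pseudocount, threshold, filter, scaling, and centring were varied.

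Some genes of the pathway are not reported here and were left out of the lists. The members and lists were chosen with earlier results of these data known. Named were the members, Gldc, genes of the other lists at least 2-fold higher or lower in a comparison described for that list, each list's highest and lowest gene, and the 5 nearest patterns. The sterol enzymes were described for each comparison except NTC over V6.5, and the other lists for iPSC over V6.5 and shGldc over NTC. Ctsb, the collagens, the ranks of single enzymes, and the iPSC over NTC ratios were added after their values were seen.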

Additional observations from a re-analysis of the deposited data

Results flagged for a closer look

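Dhcr7 lay on opposite sides of its MEF level in the iPSC library and the untreated V6.5 library. Its log2 ratio was 0.57 in V6.5 cells over MEFs (39.8 against 26.8 FPKM) and -1.74 in iPSCs over MEFs (7.99 against 26.8 FPKM). The difference of -2.30 between the 2 ratios was not tested, with 1 library on each side and the same MEF library in both, and equals the iPSC over V6.5 ratio. The higher level rests on the untreated V6.5 library alone, since the NTC and shGldc libraries, also of V6.5 cells but from the other table, were at 23.5 and 24.2 FPKM, below MEFs. The V6.5 over MEF ratio was 0.33 on rescaling. Against the NTC library, Dhcr7 in iPSCs was at -1.55.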

How the results depend on the processing

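The members' medians and each member's ratio moved by less than 0.59, the robust spread of the NTC over V6.5 ratios, under a pseudocount of 1 or 0.01, rescaling, or centring. Rescaling and centring shift all ratios of a comparison by about one amount, which was smaller than that spread. For these settings the outcome was thus fixed and shows no robustness. Srebf2 in iPSC over MEF changed sign on rescaling and on centring. The medians of the sterol enzyme list were run with a pseudocount of 1, with rescaling, and without the members, and moved by less than that spread too. At a 1.5-fold threshold in place of 2-fold, 8 members were lower in iPSC over V6.5 in place of 6, 1 was higher and 2 were lower in V6.5 over MEF (40.7% and 30.3% of all genes), 1 was higher (Fdps) in shGldc over NTC, and 5 were lower in NTC over V6.5. With NTC in place of V6.5 as the reference for iPSCs, 4 members were at least 2-fold lower (7.81% of all genes) and the sterol enzymes lower went from 12 to 6. Among the sterol enzymes, 1 (Lbr, not Pmvk) was at least 2-fold higher in V6.5 over MEF with a pseudocount of 1, rescaling, or centring, and 0 in iPSC over MEF with centring. The 12 enzymes lower in iPSC over V6.5 became 9 with a pseudocount of 1 and 13 with one of 0.01, rescaling, or centring. Alternatives for the enzyme counts, for the members with little shared sequence, and for NTC as reference, lists included, were chosen after seeing the data.

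The share of all genes past 2-fold moved with the same choices. In iPSC over V6.5 it was 20.9% higher and 16.8% lower at 1.5-fold, and 6.11% and 4.51% with a pseudocount of 1. In shGldc over NTC it was 17.5% and 14.9%, 5.46% and 4.49%, and 5.85% and 3.96% with an FPKM of at least 5. In NTC over V6.5 it was 12.8% and 21.1% at 1.5-fold, 2.84% and 5.92% with a pseudocount of 1, and 6.24% lower with an FPKM of at least 5. Rescaling moved all ratios by about -0.24 in V6.5 over MEF and -0.30 in iPSC over MEF.

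No paired analysis was possible because each group is 1 library, and for the same reason no library was left out of a group. Counting error was small for the members, at most 7.59%, and covers neither biological nor library variation.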

Other observations

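Branches that leave the pathway before sterols were followed with 9 genes of prenylation, dolichol, and ubiquinone synthesis. In iPSCs over V6.5 cells 1 of 9 was at least 2-fold lower, Fnta, the shared subunit of the prenyltransferases (-1.15, 38.6 against 86.0 FPKM), and none was higher. Of all genes, 7.44% were lower and 10.1% higher, so these counts were near the background or below it. The median of these genes was 0.25, and Pggt1b, a prenyltransferase subunit, was the highest at 0.99. Against NTC, Fnta (-1.27) and Fntb, its partner in one prenyltransferase (-1.06), were at least 2-fold lower, where 7.81% of all genes were. The median was 0.05. Fdps, which feeds these branches too, was at -2.30 in iPSCs over V6.5 cells and at -1.17 in iPSCs over NTC. In shGldc over NTC none passed 2-fold, the median was 0.14, Ggps1 (0.44) was the highest, and Nus1 (-0.51) the lowest.

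A further list held genes of cholesterol esters and oxysterols. In iPSCs over V6.5 cells none of the 6 that passed among 7 was past 2-fold, from -0.60 for Cyp46a1 to 0.71 for Soat2, with a median of -0.24. Against NTC, Nceh1, a cholesterol ester hydrolase, was the 1 of 4 that passed at least 2-fold higher (1.54), where 16.3% of all genes were. The median was 0.47. In shGldc over NTC, Soat2, which esterifies cholesterol, was at -2.28 (1.82 against 0.294 FPKM in NTC and shGldc), and Cyp7b1, an oxysterol hydroxylase, at 1.18 (0.786 against 1.91 FPKM). They were the 1 lower and 1 higher of 5 that passed, where 7.68% and 8.97% of all genes were, and the median was 0.56. The Soat2 and Cyp7b1 levels were low, and no replicate was at hand.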
